A study of Mus musculus with 203 samples.

Results

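Cnr1, which encodes the CB1 cannabinoid receptor, was described together with 8 genes of the endocannabinoid system in single motor neurons of the mouse nucleus ambiguus (Amb). The 9 genes were taken by name from a count table of 24029 genes: the receptor gene Cnr1, Cnrip1 for a protein that binds the receptor, Dagla and Daglb for the enzymes that make 2-arachidonoylglycerol (2-AG), Mgll, Abhd6 and Abhd12 for enzymes that break it down, and Napepld and Faah for an enzyme that makes anandamide and the enzyme that breaks it down. All 9 were in the table. The rule that names them uses no measured value, but they were chosen with earlier results of these data known. From these same neurons the study had already reported Cnr1 as selectively expressed in its Amb cardiac neurons. CB1 is a Gi/o-coupled receptor that sits mainly on axon terminals and lowers transmitter release. Its ligands 2-AG and anandamide are lipids made on demand from membrane phospholipids, often in the cell postsynaptic to the receptor, so the gene for the receptor and the genes for synthesis need not be used in the same neuron. Motor neurons of the Amb carry vagal signals to the heart, the airways and the larynx.

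The neurons came from wild-type mice, C57BL/6 in the labels and C57BL/6NCrl in the study's methods. Tracer, fluorescent cholera toxin B, was injected on postnatal day 1 either into the pericardial space, which labelled Amb cardiac neurons, or into the cricothyroid muscle, which labelled Amb laryngeal neurons. Between postnatal days 2 and 4 single labelled somata were aspirated from brain slices and sequenced one by one with the plate-based Smart-seq2 method, which reads whole transcripts without molecular identifiers. The data hold 53 ACP and 98 ACV neurons, the molecular types into which the cardiac neurons were divided by clustering of these counts. They also hold 52 laryngeal neurons. No neuron carried a genetic change, and no treatment was compared. By the study's methods all mice had cold anaesthesia, buprenorphine and surgery for the injection. The pericardial tracer went in through a thoracotomy, and the laryngeal tracer through a neck incision in other mice. Cardiac and laryngeal neurons thus differ in animals and surgery as well as in target, and these cannot be told apart.

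The labels do not tie a neuron to a mouse, a litter or a plate, so each neuron type was 1 sample and no difference between types was tested. SDs are over neurons and intervals cover counting error only. Cardiac and laryngeal neurons were separated by the injected target, which does not depend on the counts, whereas ACP and ACV neurons were separated by the counts themselves, so the ACP and ACV values side by side are a description of that division. Levels are given as CPM, a gene's counts per 1000000 counts of the neuron outside Rn45s, the ribosomal precursor RNA, which took 37% of the counts of an ACP neuron on average, 38.5% of an ACV neuron and 58.2% of a laryngeal neuron. Counts outside Rn45s averaged 1218780 in ACP, 1180800 in ACV and 608042 in laryngeal neurons, so low levels were read with less precision in laryngeal neurons. Cholinergic motor neuron markers were present in every type. Slc18a3, the vesicular acetylcholine transporter, was read in all neurons, and Calca, a peptide gene of laryngeal motor neurons, had a mean of 2095 CPM in laryngeal, 52.8 in ACP and 22.8 in ACV neurons. Calb1, a calcium-binding protein that marks ACP neurons, had a mean of 175.8 CPM in ACP and 38.8 in ACV neurons, and Bche, a cholinesterase that marks ACV neurons, one of 14.6 and 99.4. Glial RNA was present in all 3 types. The sum of 28 astrocyte, oligodendrocyte, microglia and vascular markers had medians of 2788 CPM in ACP, 2607 in ACV and 3379 in laryngeal neurons. Single neurons ranged from 130.02 to 37184. Aldoc, an astrocyte marker in this sum, was read in nearly all neurons, with medians of 734, 919 and 1646 CPM in the same order. The other astrocyte markers all had lower means in laryngeal than in cardiac neurons. The higher laryngeal median of the sum thus does not by itself show more glial RNA. Whether the Aldoc reads came from glia was not tested, and correlations with this sum carry that limit.

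The 3 stretches of DNA printed here lie around annotated transcription starts and are shown because, of the 9 genes, Cnr1 differed most between the types and Napepld had the lowest level. They are RefSeq windows of 300 bases on GRCm38.p6, from 250 bases before a start to 50 bases after it, printed 5′ to 3′ on the gene's strand, with each CG dinucleotide in capitals. Cnr1 has 3 such windows, of which the middle and the last are printed (chr4:33924394-33924693 and chr4:33926130-33926429, plus strand). The Napepld window is at chr5:21701573-21701872 on the minus strand.
Cnr1, middle start: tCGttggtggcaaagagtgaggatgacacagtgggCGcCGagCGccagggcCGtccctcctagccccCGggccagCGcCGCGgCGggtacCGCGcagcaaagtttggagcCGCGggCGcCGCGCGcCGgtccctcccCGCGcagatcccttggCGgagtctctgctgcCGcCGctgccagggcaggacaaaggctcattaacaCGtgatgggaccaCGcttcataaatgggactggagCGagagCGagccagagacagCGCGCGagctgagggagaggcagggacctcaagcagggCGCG
Cnr1, last start: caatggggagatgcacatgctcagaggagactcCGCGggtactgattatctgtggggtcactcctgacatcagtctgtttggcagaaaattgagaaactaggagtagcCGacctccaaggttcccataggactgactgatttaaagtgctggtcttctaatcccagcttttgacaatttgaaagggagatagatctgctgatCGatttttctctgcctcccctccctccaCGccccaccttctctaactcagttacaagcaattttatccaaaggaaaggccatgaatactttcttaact
Napepld: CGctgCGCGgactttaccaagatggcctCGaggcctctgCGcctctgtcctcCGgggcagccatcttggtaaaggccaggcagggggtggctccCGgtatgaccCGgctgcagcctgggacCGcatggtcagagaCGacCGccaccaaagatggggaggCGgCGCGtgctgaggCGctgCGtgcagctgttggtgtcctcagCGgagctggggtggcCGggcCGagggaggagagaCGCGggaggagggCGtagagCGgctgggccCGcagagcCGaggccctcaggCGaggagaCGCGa
The middle Cnr1 window holds 33 CG dinucleotides, more than 91.4% of the 32851 mouse windows of this length, and the first, at chr4:33924014-33924313, holds 40. The last holds 5, against a median of 7 over all windows. The Napepld window holds 28, more than 85.8% of windows. Napepld was read in few neurons of any type, and no link between CG content and level was tested. The Napepld window and the first Cnr1 window lie outside the spans that the GENCODE vM21 annotation gives these genes, so the 2 annotations differ on these starts. CG reads the same on both strands, and 94.6% of all windows hold at least 1. Counts per gene do not tell which start a transcript used. Windows were found for 7 of the 9 genes, all but Dagla and Abhd12.

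Cnr1 transcript was a common feature of cardiac neurons and a sparse one of laryngeal neurons. The gene lies at chr4:33924593-33948831 on the plus strand (GRCm38, GENCODE vM21) and has 4 exons. In the 53 ACP neurons its level ran from 0 to 1030.4 CPM with a median of 190.9. In the 98 ACV neurons it ran from 0 to 619.9 CPM with a median of 69.9. In the 52 laryngeal neurons it ran from 0 to 184.9 CPM with a median of 0. The order was therefore ACP, ACV, laryngeal, and the ranges of all 3 types overlapped at the low end: 90 of 98 ACV neurons and 52 of 53 ACP neurons stood above the laryngeal median, and 29 ACP and 21 ACV neurons stood above the highest laryngeal neuron. No laryngeal neuron reached the ACP median, and 4 of 52 were above the ACV median. Of the ACV neurons, 21 of 98 were above the ACP median, and 2 ACP neurons were above the highest ACV neuron.

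**Figure D1:**
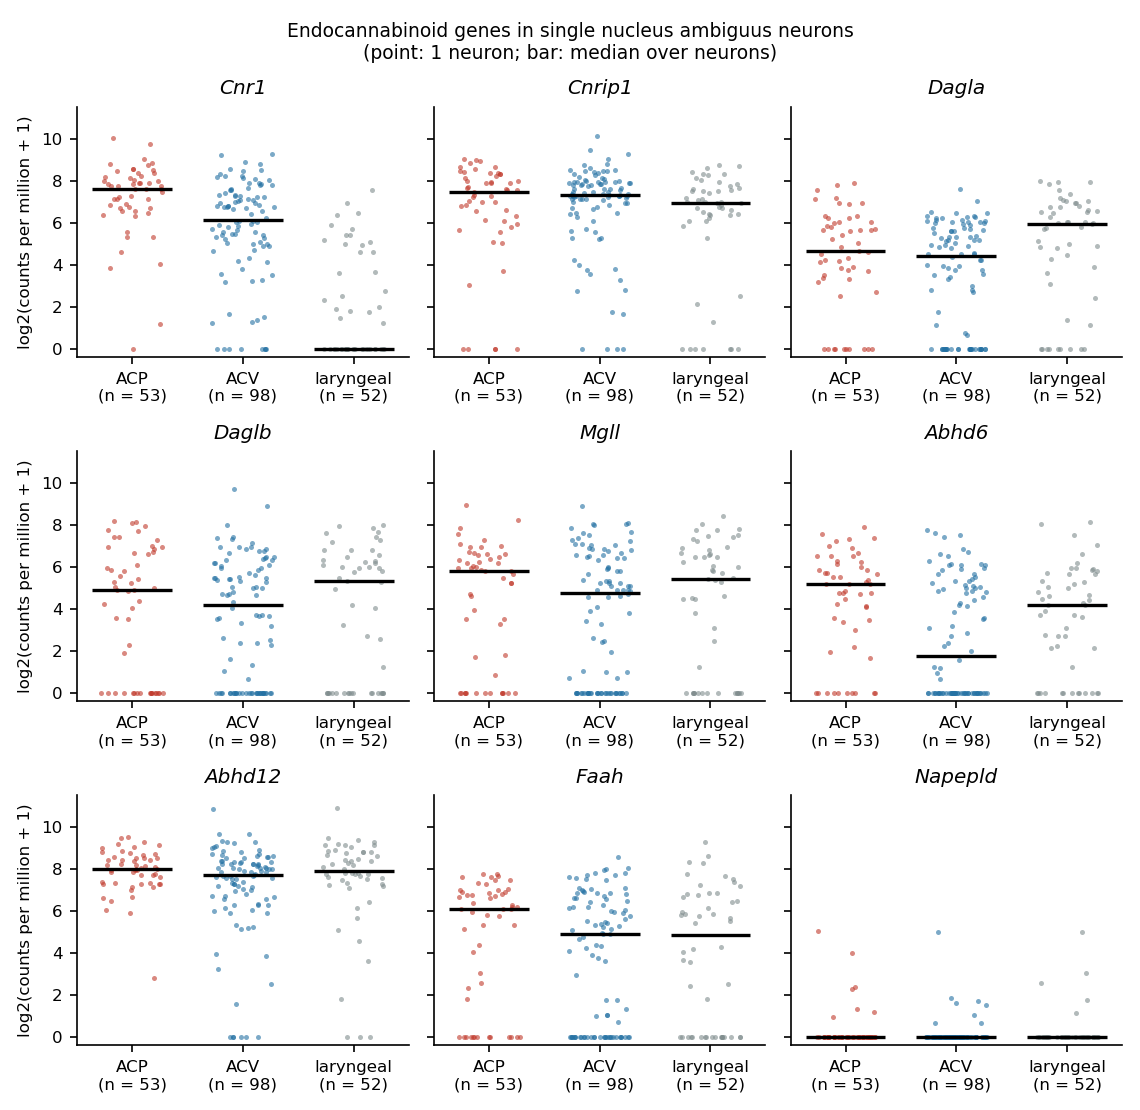
Level of each of the 9 genes in every neuron, as log2(CPM + 1), by type (53 ACP, 98 ACV and 52 laryngeal neurons). Each point is 1 neuron and each bar the median of the type. The laryngeal median of Cnr1 is at 0, below both cardiac types. In the other 8 panels the points of the 3 types overlap throughout. The medians of Dagla and Daglb are highest in laryngeal neurons and those of Mgll and Faah in ACP neurons. The ACV median of Abhd6 is near the floor.

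At least 1 Cnr1 read was present in 52 of 53 ACP neurons (98.1%, exact 95% interval 89.9 to 99.95), in 90 of 98 ACV neurons (91.8%, 84.5 to 96.4) and in 25 of 52 laryngeal neurons (48.1%, 34 to 62.4). With a minimum of 5 reads these shares were 96.2%, 85.7% and 30.8%. The reads were also spread differently among neurons. The ACP neuron with the highest level held 8.70% of the summed ACP level, the highest ACV neuron 5.34%, and the highest laryngeal neuron 20.8%. Summed over neurons, Cnr1 had 14020 counts in ACP (exact Poisson 95% interval 13789 to 14254), 13936 in ACV (13706 to 14169) and 557 in laryngeal neurons (512 to 605). These sums come from unequal numbers of neurons and depths, and over the summed totals of each type they were 217, 120 and 17.6 CPM. The intervals treat reads as independent, which copies of a molecule are not, and the method has no molecular identifiers to tell them.

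Mean Cnr1 levels were 224 ± 191.5 CPM in ACP neurons (SD, n = 53), 118.5 ± 128.7 in ACV neurons (SD, n = 98) and 17.1 ± 35.1 in laryngeal neurons (SD, n = 52). The difference between the ACP and laryngeal means exceeded the SD of either type, the difference between the ACV and laryngeal means was smaller than the ACV SD, and the difference between the ACP and ACV means was smaller than both SDs. On the scale of the log2 ratio of mean CPM + 1, which is used for every ratio here, cardiac over laryngeal was 3.11, or 8.63-fold, and Cnr1 stood at rank 31 of the 13202 genes with a read in at least 10% of either group. ACP over laryngeal was 3.63 and ACV over laryngeal 2.72, 2 comparisons that share the laryngeal neurons. ACP over ACV was 0.91, below 2-fold.

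The share of Rn45s and the depth moved with the cardiac and laryngeal groups, so their part in the Cnr1 difference was not tested. Ratios within ranges that both groups cover, which were chosen after seeing the data, are given as descriptions. Among neurons with under 50% of their counts on Rn45s (45 ACP, 76 ACV, 15 laryngeal) cardiac over laryngeal was 3.66, and among neurons with 400000 to 1000000 counts outside Rn45s (18, 39 and 37) it was 3.14. With every neuron thinned to 200000 counts it was 3.06, a draw that left out 3 laryngeal neurons. Within a type, Spearman's rho between the Cnr1 level and the percent of counts on Rn45s was 0.17 in ACP, -0.23 in ACV and 0.16 in laryngeal neurons. Cnr1 showed rhos of -0.19, 0.06 and 0.00 with the summed glial and vascular markers in the same order, and of -0.20, -0.25 and 0.38 with the summed markers of interneurons and sensory neurons, a sum with a higher median in laryngeal neurons. In neurons with at most 900 counts of the astrocyte gene Apoe cardiac over laryngeal was 2.92.

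**Figure D2:**
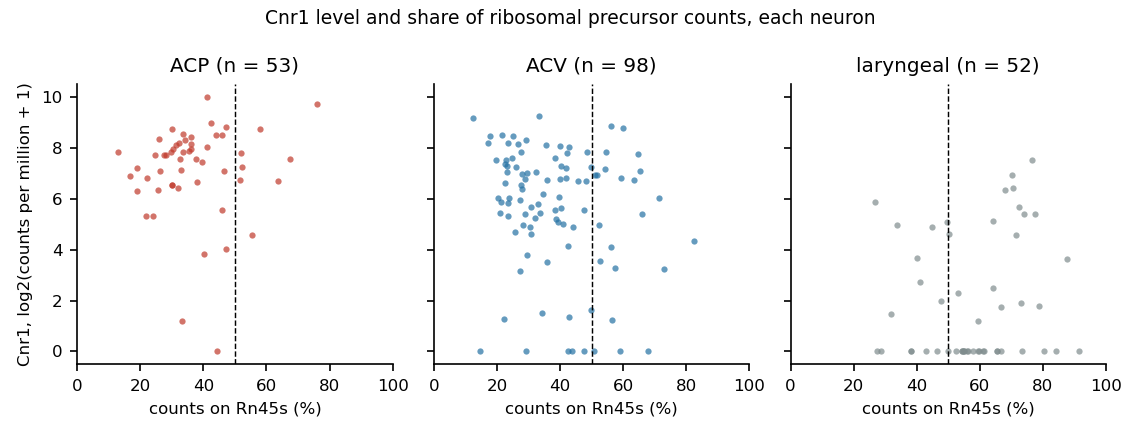
Cnr1 level as log2(CPM + 1) against the percent of counts on Rn45s in each neuron, with ACP, ACV and laryngeal neurons in separate panels and a dashed line at 50%. Most laryngeal neurons lie to the right of the line and many at a Cnr1 level of 0, and to its left the 15 laryngeal neurons lie below most ACP and ACV neurons.

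Among the 8 members that passed the 10% filter in the cardiac over laryngeal comparison, 1 (Cnr1) was more than 2-fold higher and none more than 2-fold lower. Over all genes tested, 7.07% were more than 2-fold higher and 8.8% more than 2-fold lower, so a count of 1 of 8 is close to the background. The member left out by the filter was Napepld. For ACP over laryngeal, 9 members passed, of which 1 (Cnr1) was higher and none lower, against 8.09% and 10.1% of all genes. For ACV over laryngeal, 8 passed, of which 1 (Cnr1) was higher and 1 (Dagla) lower, against 7.87% and 11.8%. For ACP over ACV, 9 passed and none was past 2-fold in either direction, against 7.55% higher and 6.31% lower. The median log2 ratio of the members without Cnr1 was -0.21 for cardiac over laryngeal and 0.33 for ACP over ACV, beside medians of -0.01 and 0.00 over all genes tested. With Rn45s kept in the totals the median of all genes moved to 0.49 for cardiac over laryngeal. Cnr1 was then at 3.80 and Dagla at -0.43, and Daglb, Mgll, Faah, Abhd6 and Abhd12 changed sign but stayed below that median, while 17.6% of all genes were then more than 2-fold higher and 2.79% more than 2-fold lower.

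**Figure D3:**
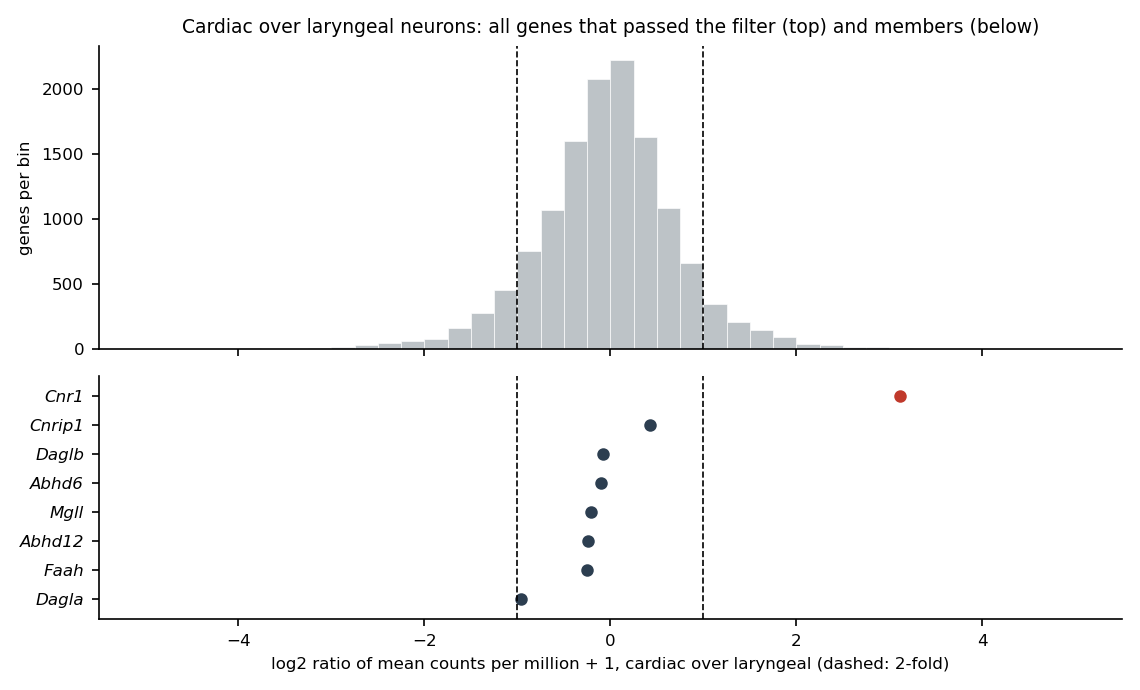
Top, number of genes per bin of the log2 ratio of mean CPM + 1, cardiac over laryngeal neurons, for the 13202 genes that passed the filter. Below, the ratios of the 8 members that passed, with dashed lines at 2-fold in each direction. Cnr1 lies at 3.11 in the right tail, Dagla at -0.96 close to the left line, and the other 6 between -0.25 and 0.43.

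Cnrip1, for the cannabinoid receptor interacting protein that binds the tail of CB1, was read in most neurons of every type. Its level ran from 0 to 519 CPM in ACP neurons (median 177.04), from 0 to 1097 in ACV neurons (median 159.4) and from 0 to 429.9 in laryngeal neurons (median 120.5). Means were 189.2 ± 145.4, 188.6 ± 161.3 and 140.1 ± 114.4 CPM (SD, n = 53, 98 and 52), so the types overlapped over nearly their whole range and differed by less than 1 SD. Cardiac over laryngeal was 0.43 and ACP over ACV 0.00. Among neurons with 400000 to 1000000 counts outside Rn45s the first ratio was -0.19, the only alternative that turned its direction, and with every neuron thinned to 200000 counts it was 0.37. Unlike Cnr1, Cnrip1 was thus present in laryngeal neurons at a level near that of cardiac ones, with a read in 45 of 52 (86.5%, 74.2 to 94.4). Both genes were read together in 47 of 53 ACP, 88 of 98 ACV and 23 of 52 laryngeal neurons. Cnrip1 lies at chr11:17051586-17079371 on the plus strand, and part of its exons overlaps Plek on the other strand. Whether counting used strand is not given in the sources used here, so reads in that stretch cannot be assigned. Plek, a gene of blood and microglial cells, was itself read in 9 ACP, 15 ACV and 6 laryngeal neurons.

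Dagla and Daglb encode the diacylglycerol lipases that cut diacylglycerol to 2-AG, of which the alpha form serves most synaptic 2-AG signalling in the brain. Dagla ran from 0 to 231 CPM in ACP neurons (median 24.2), from 0 to 195.4 in ACV neurons (median 20.6) and from 0 to 250.3 in laryngeal neurons (median 60.8). Its order was the opposite of that of Cnr1 at the laryngeal end: 35 of 52 laryngeal neurons were above the ACP median and 36 above the ACV median, although all 3 types included neurons at 0 and overlapped throughout. Means were 47.2 ± 56.1, 30.03 ± 33.9 and 71.2 ± 70 CPM. Cardiac over laryngeal was -0.96, just inside 2-fold, ACP over laryngeal -0.58, and ACV over laryngeal -1.22. A Dagla read was present in 81.1% of ACP (68 to 90.6), 71.4% of ACV (61.4 to 80.1) and 82.7% of laryngeal neurons (69.7 to 91.8), so the types differed in the level more than in the share of neurons with a read. Dagla lies at chr19:10245265-10304877 on the minus strand. Cardiac over laryngeal passed 2-fold, at -1.08, with 10% of neurons trimmed at each end, and was -1.03 among neurons under 50% Rn45s. Some markers of other neurons moved the same way. Of 5 markers of interneurons and sensory neurons all passed, and 3, Gad1, Gad2 and Slc17a6, were more than 2-fold lower in cardiac neurons by their means. Slc32a1 and Slc6a5 were not past 2-fold in either direction, and Slc6a5 had a median of 0 in every type. Their summed level ran from 0 to 1990 CPM in ACP (median 55.8), from 0 to 2222 in ACV (median 47.7) and from 0 to 1239 in laryngeal neurons (median 241). The rho of Dagla with this sum was 0.34 in ACP, 0.06 in ACV and 0.01 in laryngeal neurons, and its part in the Dagla difference was not tested.

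Daglb, the beta form, had means of 64.1 ± 83.1 CPM in ACP, 49.7 ± 101.9 in ACV and 57.7 ± 70.7 in laryngeal neurons, and medians of 28.7, 17.1 and 38.4. It was read in 67.9%, 68.4% and 65.4% of neurons, and no type stood apart. Its highest value, 818 CPM in 1 ACV neuron, made up 16.8% of the summed ACV level. Daglb values are uncertain because 2309 of its 9567 exon bases overlap Rac1 on the other strand (chr5:143464584-143505942 for Daglb), and Rac1 was read in nearly all neurons at a mean of 389 CPM. At least 1 of the 2 lipase genes was read in 48 of 53 ACP, 84 of 98 ACV and 48 of 52 laryngeal neurons. Levels per kilobase of exon were used to compare genes. The length is the union of exons over all annotated transcripts, not that of the transcript present, so such comparisons are approximate. On this scale Dagla was 8.22 CPM and Daglb 6.70 in ACP neurons, 5.22 and 5.20 in ACV neurons, and 12.4 and 6.03 in laryngeal neurons. Dagla thus made up 55.1%, 50.1% and 67.3% of the summed mean level of the pair.

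**Figure D4:**
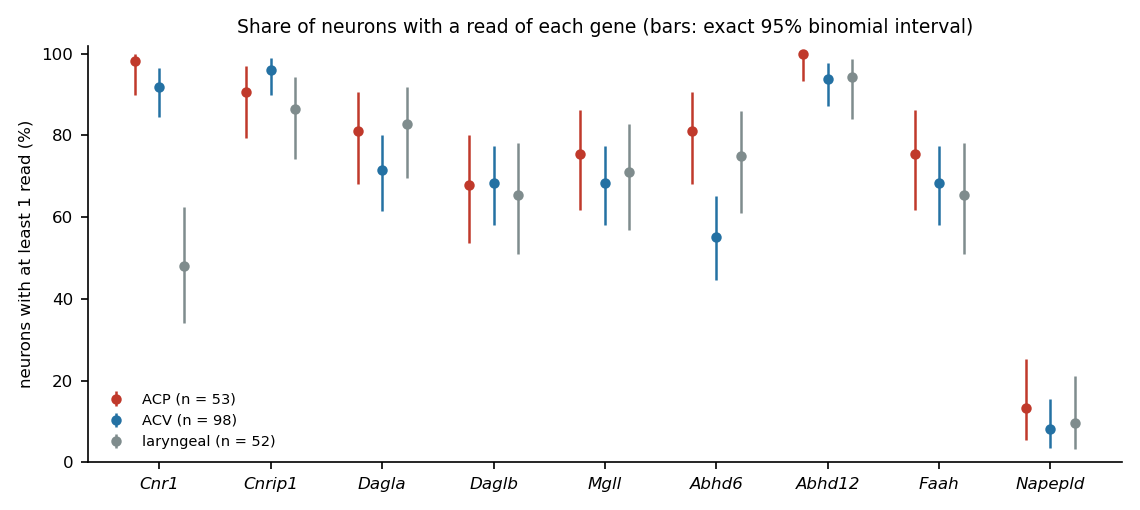
Percent of neurons with at least 1 read of each gene in ACP (n = 53), ACV (n = 98) and laryngeal (n = 52) neurons, with exact 95% binomial intervals as bars. The Cnr1 share is 98.1% in ACP, 91.8% in ACV and 48.1% in laryngeal neurons. The Abhd6 share is 81.1%, 55.1% and 75.0% in the same order, and its ACV and laryngeal bars overlap. All 3 Napepld shares are under 14%. The bars cover counting error only and are no test between types.

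Mgll, Abhd6 and Abhd12 encode serine hydrolases that remove 2-AG. Mgll, for monoacylglycerol lipase, which in the brain does most of this work and lies mainly in terminals, ran from 0 to 493 CPM in ACP neurons (median 54.3), from 0 to 467 in ACV neurons (median 26.1) and from 0 to 340.2 in laryngeal neurons (median 41.9). Means were 65.5 ± 86.7, 56.6 ± 81.3 and 69.2 ± 80.4 CPM, and the types overlapped throughout. Cardiac over laryngeal was -0.21 and ACP over ACV 0.21. Mgll had weak positive Spearman correlations with Apoe, with rhos of 0.25, 0.18 and 0.19 in ACP, ACV and laryngeal neurons, as had Abhd12, at 0.29, 0.17 and 0.11. It lies at chr6:88724412-88828360 on the plus strand, and part of its exons overlaps an antisense gene, Gm26588.

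Abhd6, a membrane enzyme that hydrolyses 2-AG inside the cell, had its lowest mean, median and share of neurons with a read in ACV neurons. It ran from 0 to 234 CPM in ACP neurons (median 34.8), from 0 to 212 in ACV neurons (median 2.402) and from 0 to 278 in laryngeal neurons (median 16.9). A read was present in 43 of 53 ACP neurons (81.1%, 68 to 90.6), 54 of 98 ACV neurons (55.1%, 44.7 to 65.2) and 39 of 52 laryngeal neurons (75.0%, 61.1 to 86). Of the ACP neurons 42 were above the ACV median, and of the ACV neurons 24 were above the ACP median, so the types overlapped. Means were 48.4 ± 54.1, 25.6 ± 43.4 and 36.1 ± 58.8 CPM. ACP over ACV was 0.89, below 2-fold, a ratio that was 1.24 with 10% of neurons trimmed at each end. ACV over laryngeal was -0.48 and ran from -0.76 to -0.02 over the alternatives, and these 2 means differed by less than either SD. ACP and ACV neurons had like depths, but the mean level of microglial markers differed between them: the 8 markers summed to a mean of 137.2 CPM in ACP and 495 in ACV neurons, with ranges of 0 to 648 and 0 to 7151, and all 7 that passed the filter were more than 2-fold lower in ACP neurons by their means. The medians of the sum were close, at 99.98 and 102.06 CPM, so the higher ACV mean rested on a minority of neurons. Within types the rho of Abhd6 with this sum was 0.15 in both ACP and ACV neurons, and its part in the difference was not tested. In neurons with at most 900 counts of Apoe, 26 ACP and 44 ACV, the Abhd6 ratio was 1.31.

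Abhd12, a hydrolase better known for breaking down lysophosphatidylserine, had the highest level of the 9 genes per kilobase in every type, with means of 101.8, 87.5 and 109.6 CPM per kilobase in ACP, ACV and laryngeal neurons. It was the only member read in every ACP neuron, where it ran from 5.96 to 725 CPM (median 253). In ACV neurons it ran from 0 to 1839 CPM (median 208) and in laryngeal neurons from 0 to 1882 (median 238). The types overlapped, and cardiac over laryngeal was -0.24. Among the 3 hydrolases Abhd12 made up 75.3%, 79.9% and 79.1% of the summed mean level per kilobase, Mgll 9.54%, 10.2% and 9.84%, and Abhd6 15.1%, 9.88% and 11.02%. At least 1 of them was read in all 53 ACP neurons, 96 of 98 ACV neurons and 51 of 52 laryngeal neurons, and all 3 together in 33, 39 and 30 neurons.

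The anandamide genes were unlike each other. Faah, for fatty acid amide hydrolase, which degrades anandamide in the cell that takes it up, ran from 0 to 213 CPM in ACP neurons (median 66.9), from 0 to 372 in ACV neurons (median 28.6) and from 0 to 607 in laryngeal neurons (median 29.8). Means were 72.6 ± 67.5, 58.4 ± 76.8 and 75.7 ± 116.9 CPM, with a read in 75.5%, 68.4% and 65.4% of neurons, and the types overlapped throughout. In ACP neurons Faah had rhos of -0.40 with Apoe and -0.37 with the summed glial and vascular markers, beside 0.04 and 0.11 in ACV and -0.03 and -0.07 in laryngeal neurons. Napepld, for the phospholipase D that releases anandamide from its membrane precursor, was read in 7 of 53 ACP neurons (13.2%, 5.48 to 25.3), 8 of 98 ACV neurons (8.16%, 3.59 to 15.5) and 5 of 52 laryngeal neurons (9.62%, 3.20 to 21.03). Only 3, 1 and 2 of these neurons held at least 5 reads, and all neurons together held 95, 40 and 19 counts in ACP, ACV and laryngeal neurons. The median was 0 in each type, and 1 neuron held 54.4% to 73.8% of the summed level of its type, so Napepld gave no difference that could be read at this depth. Faah lies at chr4:115967145-116017926 and Napepld at chr5:21662901-21701396, both on the minus strand.

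**Figure D5:**
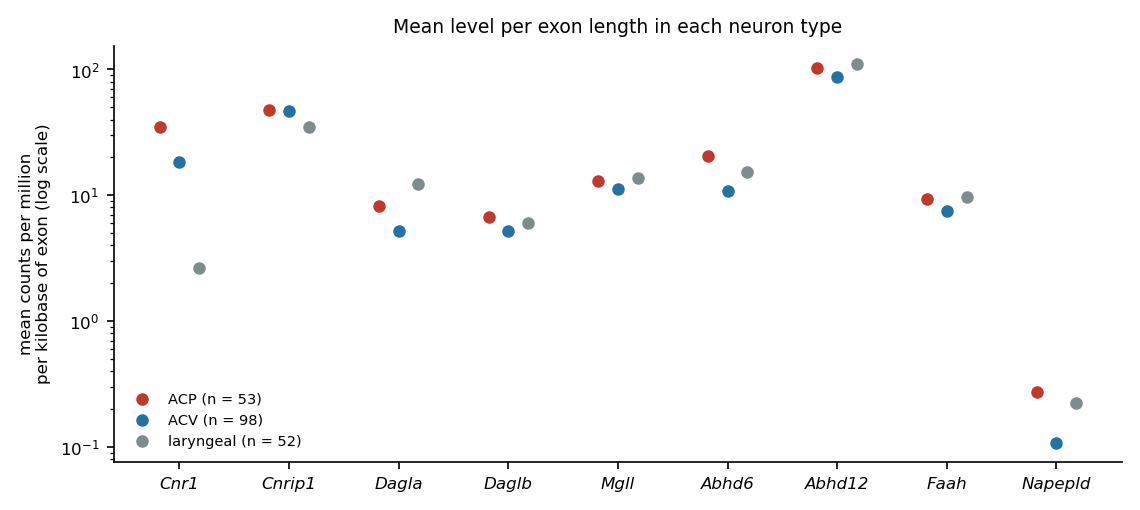
Mean CPM per kilobase of exon for each gene in ACP (n = 53), ACV (n = 98) and laryngeal (n = 52) neurons, on a log axis. Abhd12 is highest at 87.5 to 109.6, Cnrip1 follows in every type, Cnr1 is at 34.7 in ACP, 18.4 in ACV and 2.66 in laryngeal neurons, and Napepld is lowest at 0.106 to 0.274.

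Per kilobase, the order of the members in ACP neurons was Abhd12, Cnrip1, Cnr1, Abhd6, Mgll, Faah, Dagla, Daglb, Napepld. In laryngeal neurons Cnr1, with 2.66 CPM per kilobase, stood below every member but Napepld, and Dagla stood above Faah. Each step between neighbours in these orders was smaller than the SD over neurons of the higher member. In single neurons the median number of the 7 enzyme genes with a read was 5 in each type, from 1 to 7 in ACP and laryngeal and from 0 to 7 in ACV neurons. Cnr1 was read together with Dagla or Daglb in 47 of 53 ACP neurons, 80 of 98 ACV neurons and 24 of 52 laryngeal neurons, and with Mgll in 39, 64 and 19. Across neurons of a type, Cnr1 showed weak rhos with the other members, from -0.23 (Daglb) to 0.23 (Abhd12) in ACP, from -0.06 (Mgll) to 0.20 (Dagla) in ACV, and from -0.08 (Daglb) to 0.25 in laryngeal neurons. Both genes of a pair were read in the same library at the same depth, which differed between neurons, and the values are descriptions.

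Genes around the 9 members were taken from lists by role. Of 8 other receptors of endocannabinoid-type lipids, only Ppard, a nuclear receptor for fatty acids, passed the filter, and it was low, with means of 0.314, 0.0458 and 1.69 CPM in ACP, ACV and laryngeal neurons, and a cardiac over laryngeal ratio of -1.24. It passed through the laryngeal neurons, with a read in 13.5% of them against 5.96% of cardiac neurons. A single laryngeal neuron at 59.9 CPM held 68.1% of the laryngeal level, and without it the ratio was -0.44, below 2-fold. Cnr2, for the CB2 receptor of immune cells, had a read in 1 of 98 ACV neurons and in none of 53 ACP or 52 laryngeal neurons. For ACP and laryngeal neurons, 3 divided by the number of neurons bounds the share with a read at 5.66% and 5.77%. The exact intervals reach 6.72% and 6.85%. Trpv1, a cation channel that anandamide can open, was read in 5 ACP, 1 ACV and 3 laryngeal neurons. Of 14 symbols for further enzymes of synthesis and breakdown, 13 were in the table and 8 passed for cardiac over laryngeal, none of them past 2-fold. The highest was Gde1, a phosphodiesterase of another route to anandamide, at 412 ± 221, 421 ± 222 and 495 ± 329 CPM, or 259 CPM per kilobase over all neurons. In ACP over ACV 9 passed and 1 was past 2-fold, Inpp5d, a lipid phosphatase of blood and microglial cells, which was lower at -1.40 and had a read in 1 ACP and 12 ACV neurons.

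Of 5 intracellular carriers of these lipids, all passed in every comparison and none was past 2-fold. The highest was Fabp7, a fatty acid binding protein of glia and their precursors, at 459 CPM per kilobase over all neurons, and Hspa8, a chaperone, was at 415. Of 9 symbols for proteins that bind or desensitise CB1, 5 were in the table, and none was past 2-fold. Sgip1, which slows uptake of the receptor from the membrane, was lower in cardiac than laryngeal neurons at -0.81, with means of 64.8 ± 58.6, 61.3 ± 69.3 and 110.6 ± 93.2 CPM, while Gprasp2, a receptor sorting protein and the highest of the list per kilobase, was at 0.25. The 5 Gi/o alpha subunits all passed and none was past 2-fold in any comparison. Gnaz was the highest per kilobase, at 53.1 CPM over all neurons.

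Of 7 channel genes whose products CB1 closes or opens, 6 passed. For cardiac over laryngeal 1 was past 2-fold higher and none lower, beside 7.07% and 8.8% of all genes, and for ACP over ACV 1 was higher and 1 lower, beside 7.55% and 6.31%. Kcnj6, a subunit of the inward rectifier that Gi/o proteins open, was past 2-fold higher in cardiac neurons at 1.10, but it was low, with a read in 10 ACP, 14 ACV and 6 laryngeal neurons, and without the highest cardiac neuron it was at 0.93, below 2-fold. Kcnj3, its partner subunit, was higher in ACP than ACV neurons at 1.79, with means of 21.1 ± 33.8 and 5.38 ± 15.8 CPM and 21.4 ± 44.6 in laryngeal neurons. Cacna1e, an R-type calcium channel, was lower in ACP than ACV neurons at -1.42, with means of 83.95 ± 125.6, 227 ± 284 and 186.8 ± 231 CPM. Cacna1b, the N-type channel at many terminals and the highest of the list per kilobase, differed little, at 0.08 for cardiac over laryngeal and -0.13 for ACP over ACV.

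Upstream of diacylglycerol, 9 of 10 Gq-coupled receptors, G proteins and phospholipases C passed for cardiac over laryngeal, of which 2 were past 2-fold higher and 2 lower, beside 7.07% and 8.8% of all genes. For ACP over ACV 9 passed, 1 higher and 2 lower, beside 7.55% and 6.31%. Grm5, the metabotropic glutamate receptor mGluR5, was higher in cardiac neurons at 1.41 and in ACP over ACV at 1.44, with medians of 253 CPM in ACP, 82.4 in ACV and 43.5 in laryngeal neurons. Its order was that of Cnr1. Plcb4, a phospholipase C that makes diacylglycerol, was higher in cardiac neurons at 2.04 but lower in ACP than ACV neurons at -3.14 and in ACP than laryngeal neurons at -0.56, with medians of 29.2, 309 and 48.3 CPM. The muscarinic receptor genes Chrm1 and Chrm3 were both lower in cardiac neurons at -1.78, and both had medians of 0 in all types. Chrm3 was also lower in ACP than ACV neurons at -1.89, with a read in 6 of 53 and 27 of 98. Gna11, a Gq-type subunit, was the highest of the list per kilobase and was at 0.16 for cardiac over laryngeal. Over the list the median ratio was 0.16 for cardiac over laryngeal and -0.24 for ACP over ACV.

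The genes whose levels across neurons were most like that of Cnr1 were found by Spearman's rho on log2(CPM + 1) among 10591 genes with a read in at least 25% of neurons. Over all neurons they were Pgrmc1 (rho 0.61), a membrane progesterone receptor component, Cdh8 (0.59), a cadherin, Efna5 (0.57), an ephrin, Scg2 (0.55), a granin, and Cbln4 (0.52), a cerebellin. This ranking contains the difference between types, since Cdh8 had means of 128.1, 137.2 and 21.03 CPM in ACP, ACV and laryngeal neurons. By the mean of the rhos within the 3 types, the first 5 were Pgrmc1 (0.49), Cbln4 (0.46), Cdh8 (0.43), Gfra2 (0.37), a GDNF family receptor, and Fam19a1 (0.37), a secreted protein. Pgrmc1 went with Cnr1 at 0.67 in ACP, 0.42 in ACV and 0.37 in laryngeal neurons, and its means were 1272, 794 and 501 CPM. Gfra2 followed Cnr1 in ACP (0.58) and laryngeal neurons (0.46) but hardly in ACV neurons (0.06). In the ranking over all neurons no member came near these genes. Cnrip1 stood at rank 1566 of 10590, Faah at 2467, Abhd12 at 3184, Abhd6 at 3638, Mgll at 7317, Daglb at 7573 and Dagla at 7640. Ranks of the members by the mean of the rhos within types were not computed.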

How the data were processed

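Single neurons were sequenced with Smart-seq2. Reads were trimmed with Skewer and mapped to mm10 with STAR 2.6.1d by the authors, who then counted them per gene and deposited one table of raw counts, 24029 genes by neuron, together with the type of each neuron. The counting program, its annotation and its use of strand are not given in the sources used here. According to the study's methods, neurons with fewer than 500000 aligned reads or more than 1800 Apoe counts were removed, yet 39 deposited neurons hold more than 1800 Apoe counts. A neuron held between 542162 and 3292760 counts. A second deposited table, named as CPM, was not used because its columns do not sum to 1000000. No 2 neurons had identical counts.

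Each neuron's counts were divided by its total without Rn45s. A pseudocount of 1 CPM was added to group means, and a gene entered a comparison if 10% or more of either group had a read of it. Called means past 2-fold. The labels name no mouse, litter or plate, so each type was 1 sample, no test was run, and intervals (exact binomial for shares, exact Poisson for sums, 95%) cover counting error only. Exon lengths, positions and overlaps came from GENCODE vM21, promoter windows from RefSeq. Genes named beyond the 9 members were those of the pathway lists past 2-fold in cardiac over laryngeal or ACP over ACV neurons, the highest of each list, and the 5 genes most correlated with Cnr1 over all neurons and within types. Cnr2, Trpv1, Hspa8 and Sgip1 were named after their values were seen. The members and lists were chosen with earlier results of these data known. The symbols Plaat5, Grk2, Grk3, Adrbk1 and Adrbk2 were absent from the count table and were not analysed here. Trimmed means, summed counts, other totals (edgeR 4.0.16 TMM), filters, pseudocounts, thinning and subsets of neurons were tried as alternatives, and the ratio script was tested on simulated data. Python 3.11.15 with pandas 2.3.3 and scipy 1.17.1 was used.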

Additional observations from a re-analysis of the deposited data

How the results depend on the processing

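Cnr1 was past 2-fold in all 3 comparisons with laryngeal neurons under every alternative, with log2 ratios of 2.61 to 3.80 for cardiac, 3.11 to 4.38 for ACP and 2.24 to 3.47 for ACV neurons, and its ACP over ACV ratio ran from 0.68 to 1.23 around the 2-fold limit. Of 436 member ratios recomputed, 434 moved by less than the spread between neurons. The other 2 were both Napepld, ACP over ACV, at 1.19 with a pseudocount of 0.1 and -0.69 in neurons with 400000 to 1000000 counts outside Rn45s. The spread was the smaller SD of log2(CPM + 1) over neurons of the groups compared. It was about 1.1 or more for every member but Napepld, so the count says little on stability. The Cnrip1 ratio for cardiac over laryngeal, which ran from -0.19 to 0.98, was counted among the 434. The number of members past 2-fold, 1 for cardiac over laryngeal, became 2 (Cnr1 and Dagla) with trimmed means, with summed counts, in neurons with at least 1000000 counts and in neurons under 50% Rn45s. With Rn45s in the totals it was 2 (Cnr1 and Cnrip1) for ACP over laryngeal and 1 (Cnr1) for ACV over laryngeal. For ACP over ACV, 0 became 1 (Napepld) with a pseudocount of 0.1, 2 (Cnr1 and Abhd6) with trimmed means and with at most 900 Apoe counts, and 1 (Abhd6) with 400000 to 1000000 counts outside Rn45s. The Cnr1 share was 100% of the 26 ACP neurons with at most 900 Apoe counts and 30.8% of laryngeal neurons at a minimum of 5 reads. The cause of these shifts was not tested. The limits on Rn45s and on 400000 to 1000000 counts were chosen after seeing the data. The pathway lists were recomputed only without the highest neuron of the higher group, also chosen after seeing the data, which took the Ppard and Kcnj6 ratios for cardiac over laryngeal below 2-fold. No paired analysis was possible because the neuron numbers only name neurons and the types share none. Few counts limit the Napepld and Cnr2 values.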
